A study of Mus musculus with 7 samples.

Results

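Gene expression in the ventrolateral division of the ventromedial hypothalamus (VMHvl) was measured in 3 female mice that had been ovariectomized and given vehicle only, and the 3 libraries were taken by that treatment label from the 7 in the series. The other 4 mice received 1 µg of estradiol benzoate and were not analysed here. Vehicle was injected subcutaneously, the tissue was taken 4 h later by hand dissection and frozen, and each library came from 1 mouse. All mice were of mixed background with 129/Sv ancestry, descending from a line with a floxed Esr1 gene; whether they carried that allele, and their age, is not given in the sources used here. RNA came from whole dissected tissue and not from sorted cells, so neurons, glia and vessel cells were read together, and a lower value for a cell type's genes can mean fewer such cells or less RNA per cell, which cannot be told apart. The mice are called vehicle 1, 2 and 3, and the numbers carry no order.

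The VMHvl is a small group of mostly glutamatergic neurons at the base of the hypothalamus. Many of its cells carry estrogen receptor alpha (Esr1), a nuclear receptor that binds estradiol and regulates transcription, and in females these cells are known for parts in sexual receptivity, physical activity and energy expenditure. The progesterone receptor gene Pgr is a classic estradiol-responsive gene there. Ovariectomy removes the main source of circulating estradiol, so the vehicle mice give a picture of the region with little ovarian hormone.

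Levels are given on 3 scales. CPM is a gene's count scaled by its library's total and serves to compare mice. Nuclear-gene CPM is the same after leaving mitochondrially encoded and ribosomal RNA genes out of the total. TPM divides each count by the gene's exonic length before scaling, and only TPM is used to compare genes with each other; a rank is a gene's place by mean TPM among the 27336 genes with a count and a known length, where rank 1 is the most abundant. A TPM of 2.38 marks the median of those genes, 49.5 the 90th percentile and 276 the 99th.

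Libraries held 21037303 to 30909554 counts, 23668 to 25656 genes had a count in a library, and 13760 genes reached 1 CPM in all 3 mice. Vehicle 1 stood apart. The 2 mitochondrial ribosomal RNAs took 26.1% of its counts (95% Wilson interval 26.08 to 26.11) against 9.92% (9.905 to 9.926) in vehicle 2 and 7.88% (7.868 to 7.891) in vehicle 3; these intervals cover counting error only. Every other gene's CPM and TPM in vehicle 1 is lowered by that share. Vehicle 1 therefore had the highest CPM of the 3 mice for 7.91% of the genes with a mean of at least 50 counts, but the highest nuclear-gene CPM for 35.0% of them. Statements on which mouse was highest hold on both scales unless the text says otherwise.

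The most abundant transcripts were mitochondrial. Of the 10 genes with the highest TPM, 9 were encoded by the mitochondrial genome, led by the ribosomal RNAs mt-Rnr2 and mt-Rnr1 and followed by mt-Nd1, mt-Cytb, mt-Co1, mt-Nd2, mt-Nd5, mt-Nd4 and mt-Nd6, which encode parts of the respiratory chain. The remaining gene, Gm23935 at rank 8, is a model so short that its value per length is unreliable. The 10 together took 42.8% of all TPM. Among nuclear protein-coding genes the top ranks were held by genes common to neurons and astrocytes. They included 6330403K07Rik (rank 11, 2960 TPM), Vsnl1, a neuronal calcium sensor (rank 13, 2471 TPM), Sparcl1, a matrix protein of astrocytes (rank 14, 2167 TPM), and Nap1l5 (rank 15, 2015 TPM).

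**Figure D1:**
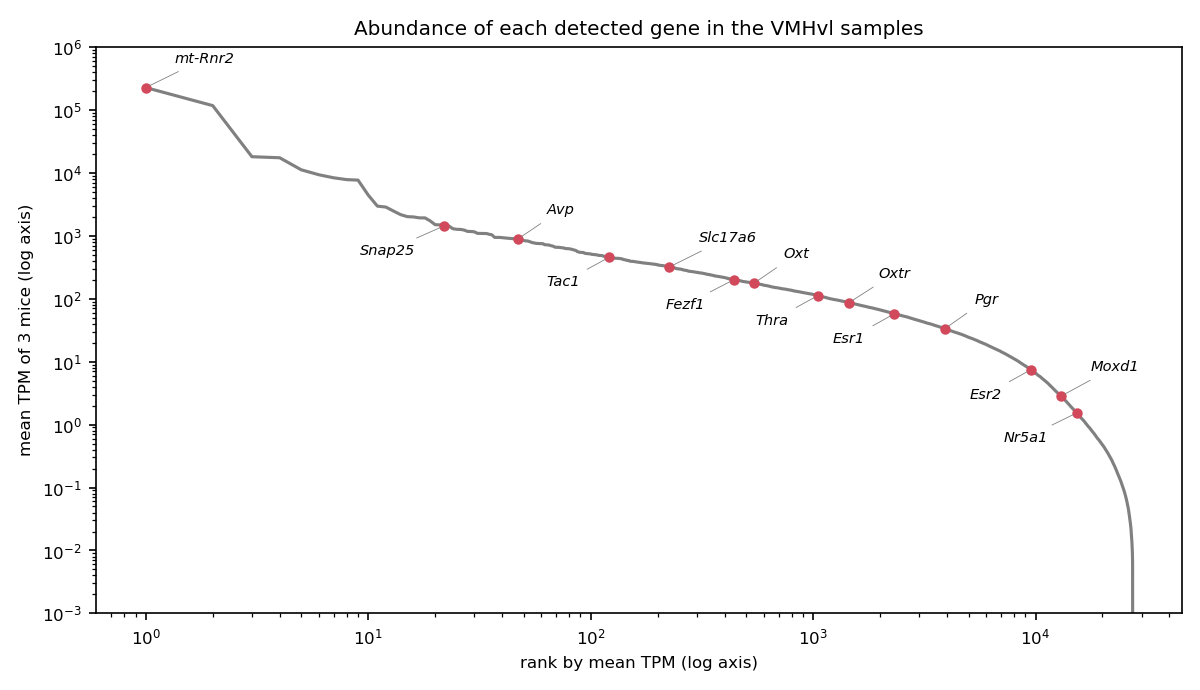
Mean TPM of the 3 vehicle mice (log axis) against rank by mean TPM (log axis) for each detected gene with a known length; the grey line runs through all genes and red points mark named genes. Esr1, Pgr and Oxtr lie at ranks 2320, 3916 and 1450, below Slc17a6, and Nr5a1 lies far to the right at rank 15326.

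All 4 markers of the labelled region were well above the median gene. Slc17a6, the vesicular glutamate transporter of hypothalamic glutamatergic neurons (chr7:51622006-51671119, plus strand, GRCm38), was the most abundant of them with 320 ± 85.3 TPM (SD, n = 3) at rank 226. Oxtr, the oxytocin receptor (chr6:112473683-112489943, minus strand), followed with 86.5 ± 28.1 TPM at rank 1450. Esr1 (chr10:4611593-5005614, plus strand) had 57.7 ± 29.0 TPM at rank 2320, and Pgr (chr9:8899833-8968611, plus strand) had 33.5 ± 9.48 TPM at rank 3916. This order held within each of the 3 mice. It depended on the length model: dividing by each gene's longest transcript in place of its merged exons put Esr1 at rank 1332 and Oxtr at rank 2031, so their order turned.

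The 4 markers differed in how far the mice spread. Esr1 had 157 CPM in vehicle 1, 323 in vehicle 2 and 182 in vehicle 3, a 2.06-fold range that was 1.81-fold on the nuclear-gene scale. Vehicle 2 was high and the other mice were close to each other. Slc17a6 had 437, 567 and 468 CPM in vehicles 1, 2 and 3, and Oxtr had 93.6, 138 and 119 CPM in the same order. Pgr had 69.0, 91.5 and 82.7 CPM. On the nuclear-gene scale the ranges of Slc17a6, Oxtr and Pgr shrank to 1.23-fold, 1.19-fold and 1.13-fold. Vehicle 2 was the highest mouse for each of the 4 genes.

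**Figure D2:**
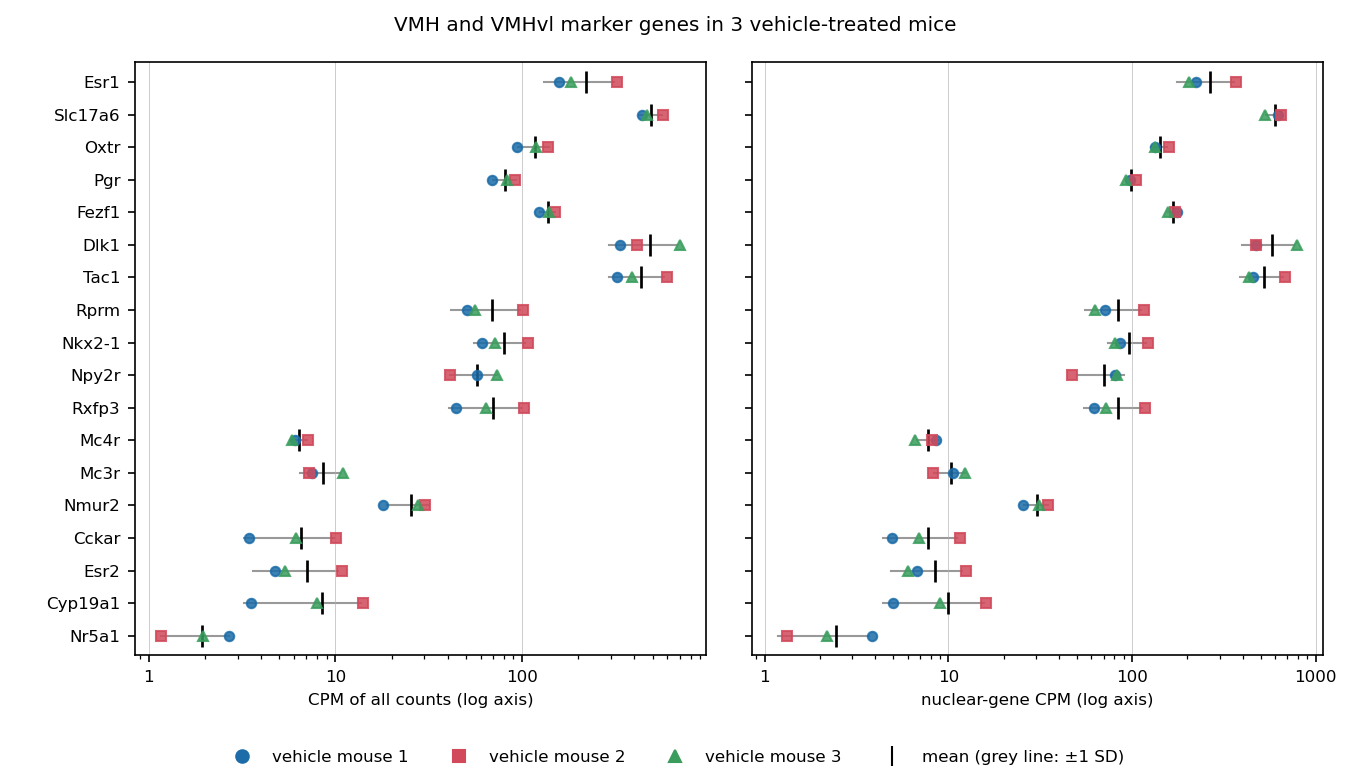
Levels of 18 genes that mark the VMH or VMHvl or were named for their known roles there, in CPM (left) and nuclear-gene CPM (right), both on log axes; each symbol is 1 mouse, the black bar is the mean and the grey line spans 1 SD either way. Vehicle 2 lies to the right for Esr1, Tac1, Rprm, Nkx2-1, Rxfp3, Cckar, Esr2 and Cyp19a1, while Fezf1 and Pgr show the 3 mice close together.

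The fuller list of genes that mark the whole VMH had 16 members in the files, all with counts, and 13 reached 1 CPM in every mouse. After Slc17a6 the leaders were Dlk1, an imprinted gene for a membrane protein related to Notch ligands, with 308 ± 160 TPM, and Fezf1, a zinc finger transcription factor needed for VMH development, with 200 ± 48.8 TPM at rank 440. Fezf1 was close in the 3 mice, with 124, 149 and 139 CPM in vehicles 1, 2 and 3. Adcyap1, encoding the peptide PACAP, had 155 TPM (rank 651), and Nkx2-1, a homeobox factor of the ventral hypothalamus, stood at rank 1194. Nkx2-1 had 60.7, 107 and 71.9 CPM, with vehicle 2 high. Of 13 members with a mean of at least 50 counts, 3 (Nr5a1, Nkx2-2 and Dlk1) differed at least 2-fold between the highest and lowest mouse, as did 8.95% of all genes, 1 did in nuclear-gene CPM (8.27% of all genes), and none of 12 did without vehicle 1.

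Nr5a1, the steroidogenic factor 1 gene used to define the VMH in development, was low in all mice. It had 2.70 CPM in vehicle 1, 1.16 in vehicle 2 and 1.95 in vehicle 3, which is 1.53 ± 0.432 TPM at rank 15326, below the median gene. Its mean count was 52.7, so counting error is large here. Nr0b1, a partner of Nr5a1 in steroidogenic tissue and the lowest member of the list, had 39, 1 and 19 counts. Fezf1 was therefore far more abundant per length than Nr5a1 in the same libraries, in each of the 3 mice.

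Genes reported for VMHvl neurons covered a wide range of levels. Tac1, the precursor of substance P, led with 456 ± 198 TPM at rank 121, and had 322, 596 and 386 CPM in vehicles 1, 2 and 3. Rprm, a p53-responsive cell cycle gene that marks part of the female VMHvl, had 169 ± 83.6 TPM at rank 580 and 50.6, 101 and 56.2 CPM. Nos1, the neuronal nitric oxide synthase, had 102 TPM. For Tac1, Rprm and Nos1 vehicle 2 was again the highest mouse. Tac1 and Nos1 are also on the list of dorsomedial and premammillary markers, so they do not mark the VMHvl alone.

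The peptide and steroid receptors of this list lay lower. Npy2r, a neuropeptide Y receptor, had 59.1 ± 21.8 TPM, and Nmur2, a neuromedin U receptor, had 27.5 ± 10.6 TPM. Esr2, encoding estrogen receptor beta, had 7.45 ± 4.26 TPM (rank 9524), and Cckar, a cholecystokinin receptor, had 6.46 ± 3.83 TPM (rank 10059). Cckar had 3.47 CPM in vehicle 1, 10.1 in vehicle 2 and 6.13 in vehicle 3. Npy2r ran the other way, with 57.1, 41.0 and 73.7 CPM and vehicle 2 lowest.

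Moxd1, a monooxygenase-like gene, was the member with the widest range, at 5.07, 2.36 and 1.05 CPM in vehicles 1, 2 and 3. Of the 17 members of the VMHvl list with a mean of at least 50 counts, 6 differed at least 2-fold between the highest and lowest mouse: Moxd1, Cckar, Lypd1, Esr2, Dlk1 and Esr1. Over all 13312 genes tested in this way, 1191 did, which is 8.95%. Without vehicle 1 the count was 2 of 17, without vehicle 2 also 2 of 17, and without vehicle 3 it was 4 of 17, where the share of all genes was 4.1%, 3.32% and 5.85%. On the nuclear-gene scale 4 of 17 did, against 1099 of 13291 genes (8.27%), and Moxd1, Cckar, Lypd1 and Esr2 are those with a range of at least 2-fold there. Vehicle 2 was the highest mouse for 10 of the 17 on the nuclear-gene scale, against 33.8% of all genes.

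The melanocortin receptors, which bind peptides made from Pomc and are in the series title, were modest in level. Mc4r had 6.07, 7.12 and 5.89 CPM in vehicles 1, 2 and 3 (7.93 ± 1.75 TPM, rank 9292). Mc3r had 7.47, 7.21 and 10.9 CPM (11.5 ± 4.17 TPM, rank 7867). Both receptors were thus above the median gene in each mouse's library but well below Oxtr. Mc4r varied by 1.21-fold between mice and Mc3r by 1.52-fold, and the highest mouse for Mc4r was vehicle 2 in CPM and vehicle 1 in nuclear-gene CPM. Mc2r, the adrenal corticotropin receptor, had 0 counts in all 3 libraries, which allows a level of up to 0.0366 CPM (3 counts of the 81915294 in the 3 libraries together).

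A hand dissection can include neighbours, and markers of other hypothalamic nuclei were present. From the arcuate nucleus, Pomc (the melanocortin precursor) had 15.2, 13.8 and 24.8 CPM, Ghrh 4.24, 4.43 and 7.80 CPM, and Npy 4.81, 3.88 and 3.23 CPM in vehicles 1, 2 and 3. Agrp, made by the same arcuate neurons as Npy, stayed under 1 CPM in each mouse, and Kiss1 had at most 0.0647 CPM. Summed over the 16 arcuate genes the nuclear-gene CPM was 988, 1083 and 1007, of which Prlr, the prolactin receptor gene that other nuclei also express, made 556, 635 and 532. Pomc had 21.5, 15.8 and 27.9 nuclear-gene CPM and Npy 6.81, 4.44 and 3.63. Sst and Cartpt, which also occur in other nuclei, were its most abundant members with 521 and 169 TPM.

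Lateral hypothalamic and tuberal markers covered a wide range of levels. Pmch, encoding melanin-concentrating hormone, had 90.04 TPM (rank 1383) and 14.3, 32.6 and 10.2 CPM with vehicle 2 high. Gpr101, an orphan receptor, had 74.5 TPM (rank 1747), while Hcrt, encoding orexin, had 9.23 TPM and 1.64, 1.75 and 2.47 CPM. Hdc, the histamine-synthesising enzyme of the tuberomammillary nucleus, had 2.84, 8.54 and 1.71 CPM, again highest in vehicle 2. Among markers of the dorsomedial and premammillary nuclei, 5 of 7 members with a mean of at least 50 counts differed at least 2-fold on both scales, against 8.95% of all genes in CPM and 8.27% in nuclear-gene CPM. They did not share a mouse. Sim1 and Brs3 were highest in vehicle 3, Lepr (the leptin receptor) and Ppp1r17 in vehicle 1, and Foxb1 in vehicle 2. Tac1 and Nos1, the most abundant members and also on the VMHvl list, differed less than 2-fold and were highest in vehicle 2.

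The oxytocin gene had the widest range among neuropeptides, and the vasopressin gene also differed widely. Oxt had 0.968 CPM in vehicle 1, 12.4 in vehicle 2 and 60.8 in vehicle 3, from 29, 384 and 1279 counts. Its 62.8-fold range was the largest among genes with a mean of at least 100 counts once predicted gene models (Gm and Rik symbols) were set aside. Avp had 44.2, 35.2 and 330 CPM, a 9.38-fold range. Vehicle 3 was high for both genes; vehicles 1 and 2 were close for Avp and far apart for Oxt. These hormones are made in large neurons of the paraventricular and supraoptic nuclei. Of the other 9 list members, Sim1, Otp, Six6, Crh and Trh were highest in vehicle 3 on both scales, Rorb and Pou3f2 in vehicle 3 in CPM but in vehicle 1 in nuclear-gene CPM, Scgn in vehicle 1 and Vip in vehicle 2. Sim1 had 1.80, 3.14 and 10.6 CPM, Otp 31.1, 44.1 and 72.0 CPM, and Six6 10.1, 13.8 and 22.3 CPM in vehicles 1, 2 and 3. Of 7 list members with a mean of at least 50 counts, 5 differed at least 2-fold in CPM and 3 in nuclear-gene CPM, against 8.95% and 8.27% of all genes. Without vehicle 3 the count in CPM was 1 of 7, where 788 of 13465 of all genes differed. Without vehicle 1 it was 3 of 7, where 542 of 13217 did. Crh and Trh, further paraventricular peptides, stayed under 1 CPM in every mouse. The part of neighbouring nuclei in these values was not tested.

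Because Oxt and Avp are neighbours on chromosome 2 and both were highest in vehicle 3, the 250 bases before their RefSeq starts (GRCm38.p6) are shown, each 5′ to 3′ on the gene's own strand. Oxt is at chr2:130575919-130576168 on the plus strand and Avp at chr2:130582589-130582838 on the minus strand. Capitals mark TGACC or its reverse complement GGTCA, a half-site that nuclear receptors can bind, and CAGACATAAA, the longest run that both windows share.
Oxt: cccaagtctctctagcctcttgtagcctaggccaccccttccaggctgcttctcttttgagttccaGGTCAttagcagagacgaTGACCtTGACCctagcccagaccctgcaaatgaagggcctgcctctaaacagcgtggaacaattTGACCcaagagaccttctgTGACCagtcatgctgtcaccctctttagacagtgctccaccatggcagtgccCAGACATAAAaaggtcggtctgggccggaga
Avp: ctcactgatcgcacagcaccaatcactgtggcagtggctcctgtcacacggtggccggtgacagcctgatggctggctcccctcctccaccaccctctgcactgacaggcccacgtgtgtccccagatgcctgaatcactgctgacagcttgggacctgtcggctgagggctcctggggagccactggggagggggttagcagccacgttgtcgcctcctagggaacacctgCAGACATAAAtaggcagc
The Oxt window held 5 half-sites on the strands searched (both), and the Avp window held none of these letters. Of 32851 RefSeq promoter windows of the same 250 bases, 35.2% held at least 1 half-site. The share with 5 or more was not counted, so whether the Oxt window is unusual was not tested. The shared run began 31 bases before the Oxt start and 18 bases before the Avp start, and 10 of the 32851 windows (0.0304%) held it on the gene's strand. Those 10 include the Oxt and Avp windows. The run was picked because these windows share it, so its low share does not measure whether the sharing is unusual. The 2 genes also resemble each other in their coding exons, and the sources used here do not say how reads matching both were counted, so their split is uncertain.

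Markers of cortex, striatum and amygdala were low to moderate. Rgs9, a G protein regulator best known from striatum, had 22.6 TPM, and Slc17a7, the vesicular glutamate transporter of cortex, had 6.61 TPM against 320 for Slc17a6. Summed nuclear-gene CPM of these 15 genes was 281, 324 and 301 in vehicles 1, 2 and 3. Among GABAergic genes, Gad2, a GABA-synthesising enzyme, had 353 ± 159 TPM (rank 193), near the 320 TPM of Slc17a6. The order of Gad2 over Slc17a6 held in only 1 of 3 mice. Slc32a1, the vesicular GABA transporter, had 16.02, 22.4 and 35.0 CPM, and Gad2 had 415, 539 and 783 CPM, both highest in vehicle 3. Markers of cholinergic, serotonergic and noradrenergic neurons (Chat, Tph2, Slc6a4, Dbh) stayed under 1 CPM in every mouse.

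**Figure D3:**
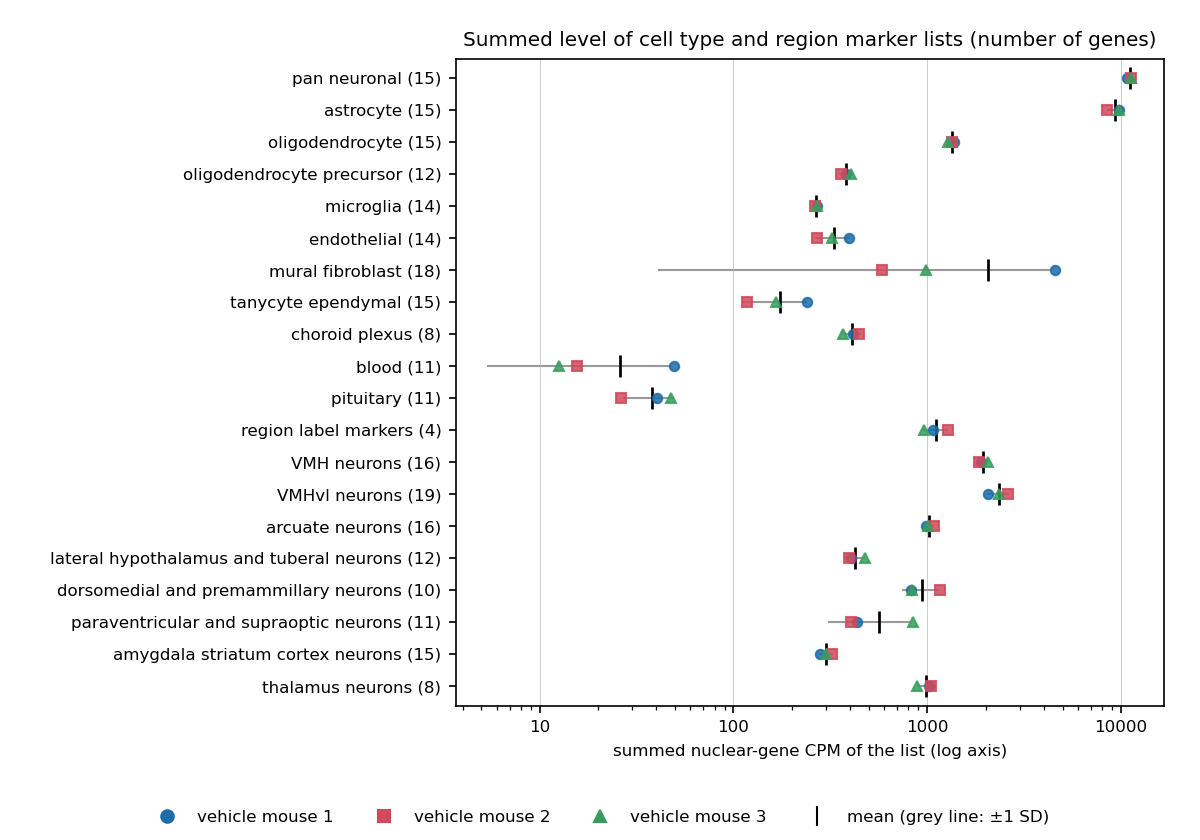
Summed nuclear-gene CPM (log axis) of each marker list, with the number of its genes in brackets; each symbol is 1 mouse, the black bar is the mean and the grey line spans 1 SD either way. Neuronal, astrocyte, oligodendrocyte and microglial lists show the mice close together, while the sum of mural and fibroblast genes is high in vehicle 1 and that of paraventricular and supraoptic genes in vehicle 3. Ptgds alone made 3516, 247 and 507 of the mural and fibroblast sum in vehicles 1, 2 and 3. Of the paraventricular and supraoptic sum, Avp made 62.6, 40.3 and 371, and Oxt 1.37, 14.2 and 68.3.

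The summed levels of neuronal and glial genes lay within 1.16-fold between mice in nuclear-gene CPM. The 15 general neuronal genes summed to 10789, 11285 and 11214 nuclear-gene CPM in vehicles 1, 2 and 3, led per length by Snap25, a vesicle fusion protein (1445 TPM, rank 22). Most of each sum came from Map2 (3777, 3745 and 4014) and Snap25 (3368, 3326 and 3431). Astrocyte genes summed to 9790.1, 8439 and 9792 and were led by Slc1a2, the main glutamate transporter of astrocytes (1170.1 TPM, rank 29). Slc1a2 alone made 5577, 4985 and 5411 of these sums. Single astrocyte genes spread more on this scale, up to 1.83-fold for Gjb6. Oligodendrocyte genes summed to 1379, 1346 and 1279.0, with Mbp, myelin basic protein, at 135 TPM, and microglial genes to 269, 264 and 270.2, with the purine receptor gene P2ry12 at 56.3 TPM. None of the 15 neuronal genes differed at least 2-fold between mice, and 1 each of the astrocyte (15), oligodendrocyte (14) and microglial (13) genes with a mean of at least 50 counts did (Aldh1l1, Aspa and Trem2), against 8.95% of all genes. Each neuronal gene had a mean of at least 726 counts. At such depth the share of all genes was lower, 7.85% at 100 to 1000 counts and 0.666% above.

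Genes of vessel walls and fibroblasts were the exception. Ptgds, a prostaglandin D synthase abundant in the meninges, had 2480.4 CPM in vehicle 1, 216 in vehicle 2 and 451 in vehicle 3. Igf2, a growth factor of meninges and vessels, had 303, 52.4 and 77.9 CPM. Vehicle 1 was far above the other mice for both. The collagen genes Col1a1 and Col1a2, the matrix genes Dcn and Lum, the GABA and taurine transporter gene Slc6a13 and the smooth muscle genes Acta2 and Myh11 were also highest there. Summed over the list, CPM was 3237, 511 and 881 in vehicles 1, 2 and 3, of which Ptgds alone made 2480.4, 216 and 451. Of the 17 members with a mean of at least 50 counts, 12 differed at least 2-fold (13 in nuclear-gene CPM), against 8.95% of all genes. Without vehicle 1 the count in CPM was 5 of 16, where 542 of 13217 of all genes differed. Genes of pericytes were mixed. Vtn had 45.3, 12.8 and 14.6 CPM with vehicle 1 high, while Rgs5 had 116, 87.0 and 140.5 CPM, or 164, 99.5 and 158 nuclear-gene CPM. Abcc9 had 17.8, 11.5 and 17.8 nuclear-gene CPM.

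Of the 100 genes with the widest range among all with a mean of at least 50 counts, 62 were highest in vehicle 1, 20 in vehicle 2 and 18 in vehicle 3, and of the widest 10 the counts were 6, 0 and 4. Of the 10 largest ranges among genes with a mean of at least 100 counts and no Gm or Rik symbol, 8 besides Oxt and the haemoglobin gene Hbb-bs were Pcolce, Mrc2, Vwf, Fmod, Prg4, Ptgds, Itih2 and Fbln1, which encode matrix, vessel or secreted proteins, and all 8 were highest in vehicle 1. Their ranges ran from 10.6-fold to 17.0-fold. Hbb-bs had 16.6, 3.24 and 0.856 CPM in vehicles 1, 2 and 3, and its near-identical neighbour Hbb-bt had 6.94, 2.69 and 0.761 CPM, so that reads may be split between them. Endothelial genes summed to 395, 269 and 323 nuclear-gene CPM, and Cdh5, the vessel cadherin, was the widest of them at 10.1, 1.97 and 4.61 CPM. Of 14 endothelial genes 2 differed at least 2-fold in CPM, against 8.95% of all genes, and 3 in nuclear-gene CPM, against 8.27%. Vim, an intermediate filament gene of tanycytes that vessel cells also use, had 66.1, 23.1 and 40.6 CPM. Of 11 tanycyte and ependymal genes, 5 differed at least 2-fold in CPM (Crym, Vim, Nes, Foxj1 and Scn7a), against 8.95% of all genes, and 4 in nuclear-gene CPM, against 8.27%. Leaving out vehicle 1 or vehicle 2 gave 1 of 11, where 542 of 13217 and 438 of 13177 of all genes differed. None of 11 oligodendrocyte precursor genes and none of 4 choroid plexus genes differed at least 2-fold on either scale, against the same shares of all genes. Ttr, the transthyretin gene of choroid plexus, had 130, 203 and 132 CPM. Vehicle 1 was highest both in the mural and fibroblast sum and in its mitochondrial ribosomal RNA share, but vehicles 2 and 3 ran in opposite order in these measures, and the part of that share in the result was not tested.

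Only 3 genes were present in 1 mouse with at least 100 counts and near absent, with at most 5 counts, in another, of 12253 genes that reached 100 counts in a mouse (0.0245%). Slc6a12, a betaine and GABA transporter gene, had 174, 0 and 9 counts in vehicles 1, 2 and 3. The 0 in vehicle 2 allows up to 0.0971 CPM. Cytl1, encoding a cytokine-like protein, had 112, 10 and 3 counts, and the ligand gene Wnt6 had 100, 7 and 4. All 3 were high in vehicle 1, and none met the rule without it. The list of 27 genes known to vary between mouse strains, checked because of the mixed background, held none of them; its most abundant members Ifi27, H2-D1 and Wdfy1 differed by 1.33-fold to 1.65-fold in CPM. Of its 15 members with a mean of at least 50 counts, 2 (Fgfbp3 and Trim30d) differed at least 2-fold in CPM, which is 13.3% against 8.95% of all genes, and 5 did in nuclear-gene CPM (33.3% against 8.27%), with H2-D1, H2-K1 and Trim12c added.

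**Figure D4:**
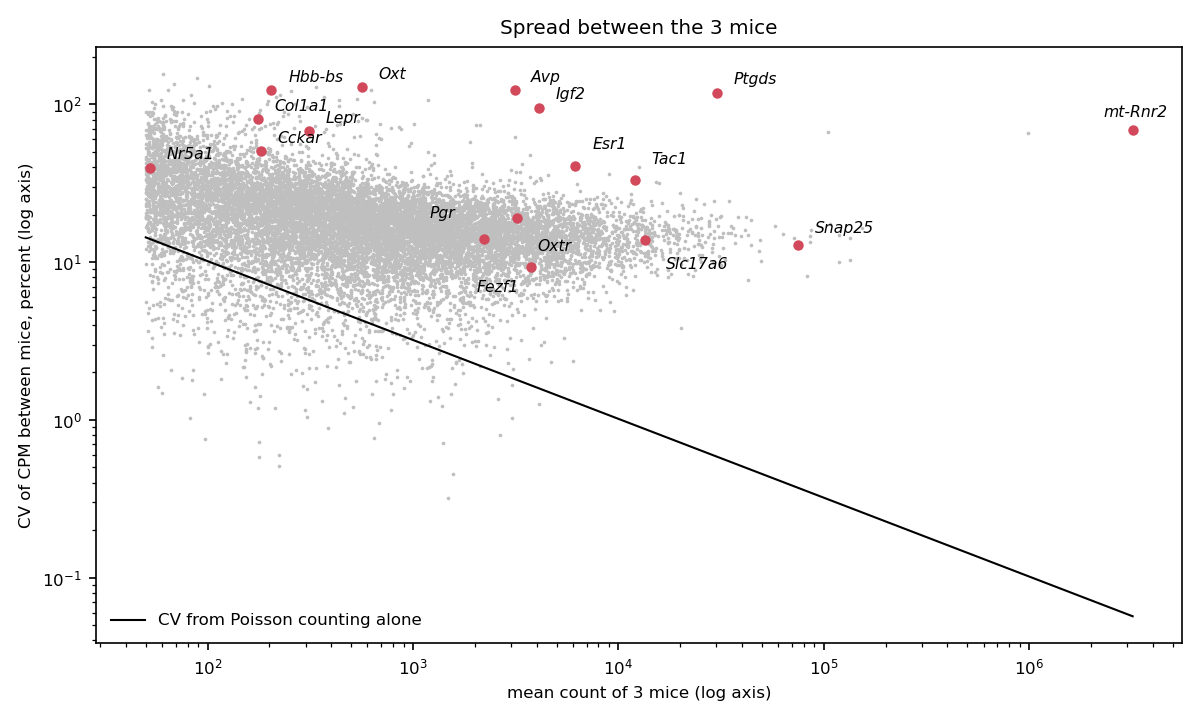
Coefficient of variation (CV) of CPM between the 3 mice (log axis) against mean count (log axis) for 13312 genes; the black line is the CV that Poisson counting alone would give and red points mark named genes. Most genes lie above the line; Oxt, Avp, Hbb-bs, Ptgds and Igf2 lie at the top, while Fezf1, Pgr and Slc17a6 lie within the main cloud.

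Across the 13312 genes with a mean of at least 50 counts the median CV between mice was 16.9%, where counting error alone gives 4.37%. On the nuclear-gene scale the median was 11.2%. The biological coefficient of variation estimated by edgeR over 15850 genes was 20.4%. Depth mattered at the low end: 35.9% of genes with a mean of 50 to 100 counts differed at least 2-fold, 7.85% of those with 100 to 1000 and 0.666% of those above. The share of all genes set beside each list is over all depths and is not matched to the counts of its members. Leaving out vehicle 1, 2 or 3 lowered the 1191 genes to 542 of 13217, 438 of 13177 and 788 of 13465. Dropping a mouse can only keep or narrow a gene's range. A list's count with a mouse left out is to be read beside these.

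Among 49 nuclear receptor genes, thyroid and glucocorticoid receptors had a higher mean TPM on merged exons than the estrogen and progesterone receptors. The place of Esr1 depended on the length model. It moved from rank 2320 to 1332 with each gene's longest transcript and to 765 without length, so its order against these receptors is not fixed. Thra and Thrb, the thyroid hormone receptors, had 112 ± 37.5 and 96.4 ± 23.9 TPM, and Nr3c1, the glucocorticoid receptor, had 81.8 ± 21.9 TPM and stood above Esr1 in 2 of 3 mice. Nr1d2, a clock repressor, had 73.2 TPM and the retinoid-related receptor Rorb 67.6 TPM. Esr1 had 57.7 TPM, and Nr2f2, a developmental regulator, 52.0 TPM. The order of neighbours held in all 3 mice for 5 of the 13 leading pairs, including Thra over Thrb and Thrb over Nr3c1. Thra and Thrb were nearly equal in vehicle 1, at 69.1 and 68.9 TPM. Esr1 stood above Nr2f2 in 1 of 3. Esr1 and Nr2f2 are therefore not separable by rank here.

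Pgr (33.5 TPM) exceeded the retinoid X receptor Rxra (23.5 TPM) and the mineralocorticoid receptor Nr3c2 (19.6 TPM). Esr2 was lower than Esr1 per length in each mouse and had 4.77, 10.9 and 5.37 CPM. Gper1, a membrane protein proposed as an estrogen receptor and not a nuclear receptor, had 0.501, 0.388 and 0.856 CPM. Nr1h4, Nr1i2 and Nr2e3, receptors of liver and retina, had 0 counts in all libraries. Of 32 receptor genes with a mean of at least 50 counts, 3 (Nr5a1, Esr2 and Esr1) differed at least 2-fold, a share of 9.38%, near the 8.95% of all genes, and without vehicle 1 or 2 the count was 1 of 31 and 0 of 31.

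**Figure D5:**
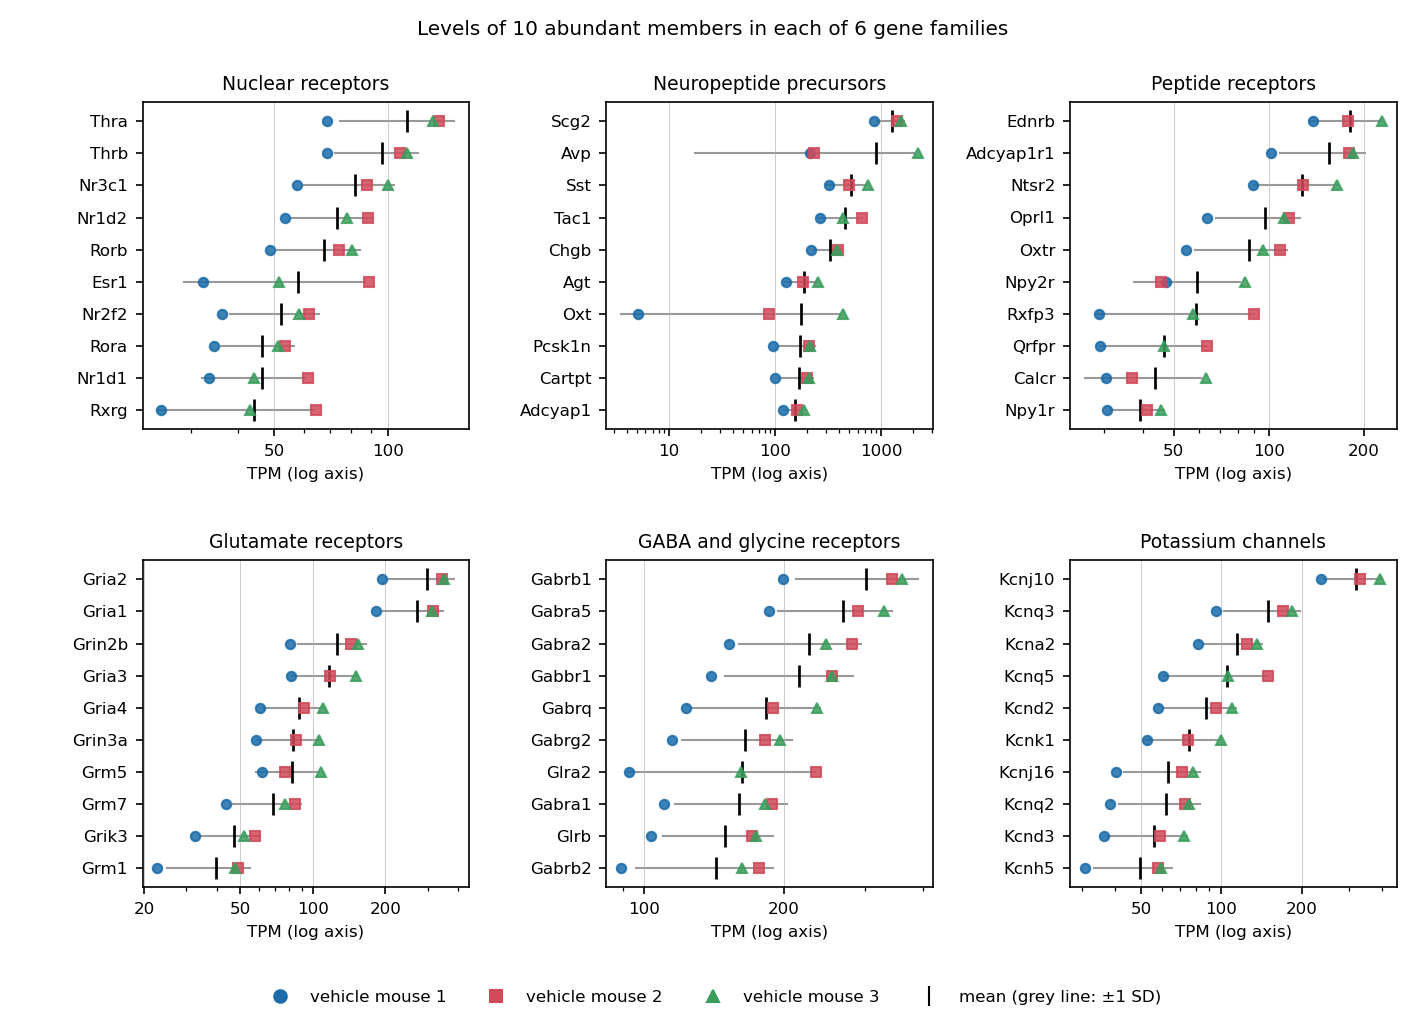
TPM (log axes that differ between panels) of 10 abundant members in each of 6 gene families; each symbol is 1 mouse, the black bar is the mean and the grey line spans 1 SD either way. Vehicle 1 lies left for most genes, since its mitochondrial ribosomal RNA share lowers its TPM, and Avp and Oxt show the widest range.

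Other transcription factors were led by Peg3, an imprinted zinc finger gene, with 844 TPM at rank 50, then Fezf1 and Csrnp3, at 200 and 144 TPM. After Nkx2-1 came Ldb2, a LIM-domain cofactor, Mef2d and Arnt2, a partner of Sim1, with 93.5, 86.3 and 85.9 TPM. Isl1, a LIM homeobox factor of arcuate and ventral hypothalamic neurons, had 45.8, 89.7 and 65.5 CPM. Of the 136 factors in the list, 98 had a mean of at least 50 counts and 20 of these differed at least 2-fold (20.4% against 8.95% of all genes), and 12 did on the nuclear-gene scale (12.2% against 8.27%). Without vehicle 1 the count was 6 of 97 (6.19% against 4.1%) and without vehicle 2 it was 7 of 95 (7.37% against 3.32%). Sim1 varied most. Isl2, Foxa2, Dbx1, Gsx2 and Nhlh1 had 0 counts.

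Of 70 peptide precursor genes, 40 reached a mean of 1 TPM and 11 reached 100. Scg2, a granin of secretory granules, was the most abundant with 1268 ± 358 TPM and 771, 940 and 998 CPM, a steady gene between mice. Avp followed with 886 ± 1150 TPM, a mean that rests on vehicle 3. Sst (somatostatin) had 521 ± 215 TPM and 81.9, 95.2 and 139 CPM, and Tac1 had 456 TPM. Chgb, another granin, had 331 TPM. The order held in all 3 mice for only 3 of the 13 leading pairs, so ranks between neighbours such as Avp, Sst and Tac1 are not fixed. Penk, the enkephalin precursor, had 132 TPM, Nts (neurotensin) 75.4 TPM and Gal (galanin) 43.0 TPM.

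Pdyn, the dynorphin precursor, had 19.5, 17.0 and 34.3 CPM. Some peptide genes reached few counts. Gnrh1, which drives the reproductive axis, had 10, 99 and 64 counts, with vehicle 1 low, and Nms (neuromedin S) had 63, 17 and 123. Iapp, Gip, Nppb, Nppa, Rln3, Pyy, Sct, Ucn, Adm2 and Gcg, most of them hormones of gut, pancreas or heart, had 0 counts. Of 31 peptide genes with a mean of at least 50 counts, 9 differed at least 2-fold (29.0% against 8.95% of all genes), and 7 did on the nuclear-gene scale (22.6% against 8.27%). Without vehicle 2 the count was 3 of 30, against 3.32% of all genes, and without vehicle 3 it was 4 of 30, against 5.85%. Enzymes and carriers that process peptides were abundant: Cpe, carboxypeptidase E, had 1438 TPM, Scg5 545 TPM and Scg3 490.4 TPM. None of 13 such genes differed at least 2-fold, and the widest, Ptprn2, differed by 1.62-fold. All genes gave 8.95%, but each of the 13 had a mean above 1000 counts, where only 0.666% of genes differed at least 2-fold. A count of 0 is therefore near the share at that depth.

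Pituitary hormone genes were near the limit of detection or low. Gh and Prl had 34 and 53 counts in vehicle 3 and 0 in vehicles 1 and 2, and Lhb had 0 in all. Cga, the shared glycoprotein hormone subunit, had 5.27, 2.36 and 4.18 CPM and Tshb 4.77, 5.34 and 6.89 CPM.

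Among 84 peptide receptor genes, 56 reached a mean of 1 TPM. Ednrb, the endothelin B receptor of astrocytes, led with 181 ± 45.1 TPM, followed by Adcyap1r1, the PACAP receptor (155 ± 46.5 TPM), Ntsr2, a neurotensin receptor of astrocytes (127 ± 37.7 TPM), and Oprl1, the nociceptin receptor (97.1 TPM). Oxtr was the fifth and stood above the next, Npy2r, in each mouse. Rxfp3, a receptor for relaxin-3, had 58.9 TPM and 44.0, 102 and 63.8 CPM, with vehicle 2 high, although its ligand gene Rln3 had 0 counts. Qrfpr, the receptor for the peptide QRFP, had 46.5 TPM and Calcr, the calcitonin receptor, 43.6 TPM. Npy1r had 37.9, 37.6 and 40.7 CPM, which was even between mice.

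Of 51 peptide receptor genes with a mean of at least 50 counts, 15 differed at least 2-fold (29.4%) against 8.95% of all genes, and 9 did (17.6%) on the nuclear-gene scale against 8.27%. Leaving out any mouse gave 7 of 50 to 52 in CPM. Without vehicle 1, 2 or 3, 542 of 13217, 438 of 13177 and 788 of 13465 of all genes differed. On the nuclear-gene scale without vehicle 2 the count was 3 of 52. Npr3, the clearance receptor for natriuretic peptides, had the widest range at 16.6, 2.88 and 9.70 CPM, and was highest in vehicle 1. Grpr, Brs3 and Pth2r were highest in vehicle 3, at 7.75, 7.70 and 9.89 CPM. Avpr1a, a vasopressin receptor, had 12.8, 26.3 and 16.9 CPM. Avpr1b, Avpr2, Ghrhr, Mc2r and Tacr2 had 0 counts.

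Of receptors for growth factors and peripheral hormones, Ntrk2, the BDNF receptor, was the most abundant at 247 ± 75.9 TPM, then Gfra2, a neurturin receptor, at 171 ± 60.7 TPM and Prlr, the prolactin receptor, at 109 ± 33.5 TPM. Prlr had 392, 555 and 473 CPM in vehicles 1, 2 and 3. Lepr had 19.7, 4.72 and 9.60 CPM and was highest in vehicle 1. Insr and Igf1r, the insulin and IGF1 receptors, had 29.1 and 21.5 TPM. Only Lepr and Tshr of 24 such genes differed at least 2-fold in CPM, a share of 8.33% against 8.95% of all genes.

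Receptors for amines and other small ligands were led by Cnr1, the cannabinoid receptor, with 85.5 ± 19.4 TPM and 158, 139 and 178 CPM. The muscarinic receptor gene Chrm5 followed with 48.2 TPM and the histamine receptor Hrh3 with 35.1 TPM. Serotonin receptors came next, Htr7 at 32.0 TPM, Htr1a at 31.3 TPM and Htr2c at 30.2 TPM, and Htr1a stood above Htr2c in 2 of 3 mice. Dopamine receptors Drd1 and Drd2 had 12.4 and 13.3 TPM. Adora2b, an adenosine receptor, had the widest range, at 3.54, 0.938 and 3.66 CPM. Htr3b, Drd4, Hrh4, Chrna6 and Mtnr1b had 0 counts.

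Ionotropic receptor genes were abundant. Among GABA-A receptor subunits Gabrb1 had 301 ± 88.5 TPM, Gabra5 268 ± 73.8 TPM and Gabra2 227 TPM, and this order held in every mouse. None of the 20 GABA and glycine receptor genes with a mean of at least 50 counts differed at least 2-fold on either scale. All genes gave 8.95% in CPM and 8.27% in nuclear-gene CPM, shares not matched to the counts of these genes. In CPM the share was 7.85% at 100 to 1000 counts and 0.666% above. Some came near 2-fold: Glra2, a glycine receptor subunit, had 104, 196 and 132 CPM, and Gabre, a subunit typical of hypothalamus, had 92.4, 98.8 and 174 CPM. Among glutamate receptors the AMPA subunits Gria2 and Gria1 led with 296 ± 89.3 and 270.3 ± 75.9 TPM, then the NMDA subunit Grin2b with 126 ± 39.6 TPM. The widest range was that of Grm2, a metabotropic receptor, at 1.502, 5.37 and 2.57 CPM.

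Potassium channels were led by Kcnj10, the inward rectifier of astrocytes, with 320 ± 78.8 TPM. Kcnq3, a subunit of the M-current channel, had 150 ± 47.5 TPM and 501, 664 and 700 CPM, Kcna2 had 114 ± 28.4 TPM and Kcnq5 105 TPM. Kcnq5 had 166, 304 and 211 CPM, with vehicle 2 high, and stood above Kcnd2 (87.3 TPM) in 2 of 3 mice. Kcnj13, known from epithelia such as the choroid plexus, varied most at 3.80, 0.809 and 1.47 CPM. Of sodium, calcium, HCN and TRP channels, Trpc5 was first with 107 ± 46.5 TPM and 113, 207 and 131 CPM. Cacna1b (an N-type calcium channel) and Scn3a (a sodium channel) followed with 77.4 and 63.3 TPM. Hcn4, a pacemaker channel, was the only 1 of 31 to differ at least 2-fold (3.23% against 8.95% of all genes), with 2.04, 2.10 and 4.56 CPM.

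Steroid-handling enzymes were present at modest levels. Sult4a1, a brain sulfotransferase-like gene, had 110 ± 40.4 TPM, and the hydroxysteroid dehydrogenases Hsd17b4 and Hsd17b12 had 62.4 and 60.2 TPM. Cyp19a1, the aromatase that makes estradiol from androgens, had 3.54 CPM in vehicle 1, 14.04 in vehicle 2 and 7.99 in vehicle 3 (6.91 ± 4.75 TPM, rank 9795). Its 3.97-fold range was 3.20-fold on the nuclear-gene scale, and vehicle 2, the mouse with the most Esr1 and Tac1, was highest. Srd5a2, Hsd3b6, Hsd3b1, Cyp17a1 and Sult1e1 had 0 counts.

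Activity-dependent genes were moderate to low. Jun had 45.2 TPM, Gadd45g 29.2 TPM and Homer1 26.2 TPM, and Fos, a common marker of recent neuronal activity, had 1.57, 1.04 and 1.90 CPM in vehicles 1, 2 and 3. Arc had 3.34, 4.82 and 2.28 CPM and was 1 of 2 of the 17 testable genes to differ at least 2-fold in CPM, with Dusp1, against 8.95% of all genes.

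Imprinted genes and brain non-coding RNAs held high ranks. Impact had 942 ± 268 TPM, Malat1 911 ± 163 TPM and Peg3 844 ± 257 TPM, at ranks 39, 43 and 50, with Ndn and Nnat close behind at 775 and 768 TPM. Of 34 such genes in the files 31 reached 1 CPM in every mouse. Igf2 was the exception in spread, as above, and Mirg and Dlk1 also differed at least 2-fold in CPM, a share of 9.68% against 8.95% of all genes; without vehicle 1 none of the 31 did. Dlk1 had 335, 415 and 703 CPM, with vehicle 3 high.

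The sex label held in every library. Xist, expressed from the inactive X chromosome, had 758, 742 and 703 CPM in vehicles 1, 2 and 3, and the Y-linked genes Uty, Kdm5d, Eif2s3y and Ddx3y had 0 counts, so that each may have been present at no more than 0.0366 CPM.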

How the data were processed

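RNA-seq libraries from hand-dissected VMHvl of 3 vehicle-treated ovariectomized mice were used. The authors deposited raw counts per gene (whole numbers, 48321 genes) for each library. Per the labels' protocols, RNA came from a column kit with DNase and 15 ng entered a Tecan/NuGEN Trio library. HISAT2, HTSeq, DESeq2 and mm10 are named per the submitters' processing notes. The sources do not give their versions, the annotation, strand use or how multiply mapped reads were treated.

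From the counts, CPM, nuclear-gene CPM and TPM were computed in Python 3.11.15 (pandas 2.3.3, numpy 2.4.6). TPM used the union of exons per gene in GENCODE M21 on GRCm38, found for 46394 genes that hold 98.2% of counts. edgeR 4.0.16 and DESeq2 1.42.0 gave the alternative scalings and edgeR the biological coefficient of variation. With 1 group and 1 library per mouse there was no test and no p-value. The spread between mice was described by SD, CV and the ratio of the highest to the lowest mouse among genes with a mean of at least 50 counts, beside the CV of Poisson counting. The scripts were tested on simulated data. Promoter windows came from RefSeq (GRCm38.p6).

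The members, the 38 gene lists (906 genes, 900 of them in the files) and all rules were chosen with earlier results of these data known. The named genes were the 3 most abundant members per length of each list, its widest member, the 10 most abundant and the 10 widest of all genes, the genes near absent in a mouse, and a fixed set of region markers. Further genes were named for their place in an order or spread, or their known role, after their values were seen. Mice were identified by treatment label only. Depth limits low genes: 3 counts in a library equal 0.0971 to 0.143 CPM. Alternatives were other scalings, other count minimums, other length models and leaving out each mouse. Some members of the lists are not reported here by name.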

Additional observations from a re-analysis of the deposited data

How the results depend on the processing

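No paired analysis was possible because only 1 group was described and its mice carry no number in the labels. The median CV of 16.9% became 11.5% with edgeR's TMM, 11.6% with DESeq2 size factors and 11.2% in nuclear-gene CPM, and 34.3% with any count; with each mouse left out it ran from 9.44% (without vehicle 1) to 17.2%. The 1191 genes with a 2-fold range became 3966 at a minimum mean of 10 counts, 289 at 200 and 14051 with any count, and 438 to 788 with each mouse left out, while TMM and size factors gave 1063 each and nuclear-gene CPM 1099. The 3 genes present in 1 mouse and near absent in another became 53 with at least 50 and at most 5 counts, 12 with at least 100 and at most 10, and 0 to 2 with each mouse left out. Genes reaching 1 CPM in all mice numbered 13928 to 14232 with a mouse left out against 13760, and 15248 reached 0.5 CPM. Without length the rank of 106 of 151 named genes moved beyond the spread between mice, and with the longest transcript 79 did; Esr1 went from rank 2320 to 765 without length. Of 150 named genes, 108 had the same highest mouse in nuclear-gene CPM, 106 with size factors and 105 with TMM. Depth limits genes under a mean of 100 counts, where counting error alone gave a CV of 12.2% at 50 to 100 counts.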
